A study of Homo sapiens with 4 samples.

Results

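The genes of WNT signalling were followed in K562 cells expressing the JAZF1-SUZ12 fusion and in mock cells. The group holds 54 genes, picked by symbol and role, with earlier results of these data known, among 35606 genes in the count table. They are 18 WNT ligands, 18 receptors and co-receptors, 8 secreted antagonists, 6 genes of the AXIN, RNF43/ZNRF3 and NKD families that restrain the pathway, and 4 TCF/LEF transcription factors. All 54 symbols were found once each. K562 is an established human line from a myeloid leukaemia that expresses many red-cell genes. The JAZF1-SUZ12 group and the mock group have 2 libraries each, numbered 1 and 2, from poly(A)-selected RNA with a directional kit. The fusion, known from endometrial stromal sarcoma, fuses JAZF1 to SUZ12, whose protein belongs to the core of Polycomb repressive complex 2 (PRC2). The labels give no vector, clone, dose or time for either group, and do not say whether the libraries of a group come from separate cultures, so p-values measure the spread between these libraries only.

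WNT proteins are secreted lipid-modified ligands that bind Frizzled receptors together with the co-receptors LRP5 or LRP6. Binding stops the AXIN, APC and GSK3 destruction complex from degrading beta-catenin, which then enters the nucleus and acts with TCF/LEF factors. Secreted SFRP and WIF1 proteins limit ligand access, and secreted DKK proteins are listed here with them as antagonists. RNF43 and ZNRF3 remove Frizzled from the membrane, and NKD proteins bind Dishevelled. Several WNT, FZD and SFRP genes are widely known as targets of Polycomb repression, the activity of the complex to which SUZ12 belongs.

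The libraries held between 17260936 and 24423028 estimated counts. JAZF1 was at 12 and 27 counts in mock and at 574 and 731 in JAZF1-SUZ12 libraries, and gene counts do not separate the fusion from the endogenous gene. The source label names uterus, so markers were examined. The 11 erythroid markers summed to between 11204 and 11558 CPM (counts scaled to a library total of 1000000) in mock and between 13200 and 13334 CPM in JAZF1-SUZ12 libraries, with 5 called higher and none lower (edgeR). The 10 stromal markers summed to between 16.2 and 17.3 CPM in mock and between 33.8 and 35.9 CPM in JAZF1-SUZ12 libraries, with COL1A1 as the only called gene, LUM at 0 in all libraries and COL3A1 at no more than 3 counts. The 5 epithelial markers summed to between 1463 and 1488 CPM in mock and between 1555 and 1567 CPM in JAZF1-SUZ12 libraries, with KRT19 called higher and EPCAM lower, and the 4 lymphoid markers to between 17.9 and 22.2 CPM over the 4 libraries, with no call. Whether the stromal or epithelial shift plays a part in the WNT results was not tested.

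Of the 54 genes, 34 passed the filter on low counts, and 13 of these rose in JAZF1-SUZ12 libraries at an adjusted p of 0.05 (edgeR quasi-likelihood test, Benjamini-Hochberg over 14750 genes). They were the ligands WNT9A and WNT11, the receptors FZD3, FZD7, FZD8 and LGR4, the antagonists SFRP1, SFRP5 and DKK3, the inhibitors NKD1 and NKD2, and the transcription factors TCF7 and TCF7L1. That is 38.2% of the tested members, where 13.3% of all genes tested were called higher, and since the list was drawn up with earlier results known, this is a description. None was called lower by edgeR, where 11.4% of all genes were, while 2 members, LEF1 and AXIN1, were lower at an unadjusted p under 0.05. The share of all genes called lower depended on mean level. It was 0.413% under 2 CPM, 1.08% between 2 and 10 CPM and 17.2% at 10 CPM or more. The tested members in these ranges numbered 8, 15 and 11, so 11.4% is too high a share to set beside those under 10 CPM. DESeq2 called 10 higher, against 9.19% of all genes, and none lower, against 7.13%. limma-voom called 13 higher, against 13.3% of all genes, and 1 lower, which was LEF1, against 12%. With no filter 50 members were tested and 15 were higher and 1 lower, against 9.17% and 8.68% of all genes. In bulk libraries, more cells expressing a gene and more RNA per cell cannot be told apart.

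The filter on low counts bears on that count. It kept DKK3, SFRP1, TCF7L1 and WNT9B through the JAZF1-SUZ12 libraries alone, and no member through mock alone. The other 30 tested members passed in both groups, and 10 of them were called higher, or 33.3%, against 12.2% of the genes in the whole table that passed in both groups. The median log2 fold change of the 34 tested members was 0.44, and it was 0.0032 over all genes tested. The median over all genes depended on mean level, at 0.41 under 2 CPM, 0.21 between 2 and 10 CPM and -0.048 at 10 CPM or more. The members had medians of 1.97, 0.52 and 0.037 in these ranges. The first includes the 4 genes kept through the JAZF1-SUZ12 libraries alone. The 2 groups did not overlap in CPM for 25 members that were higher and 4 that were lower, against 33.8% and 27.2% of all genes tested. The interval plot shows the 34 tested genes by role.

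**Figure D1:**
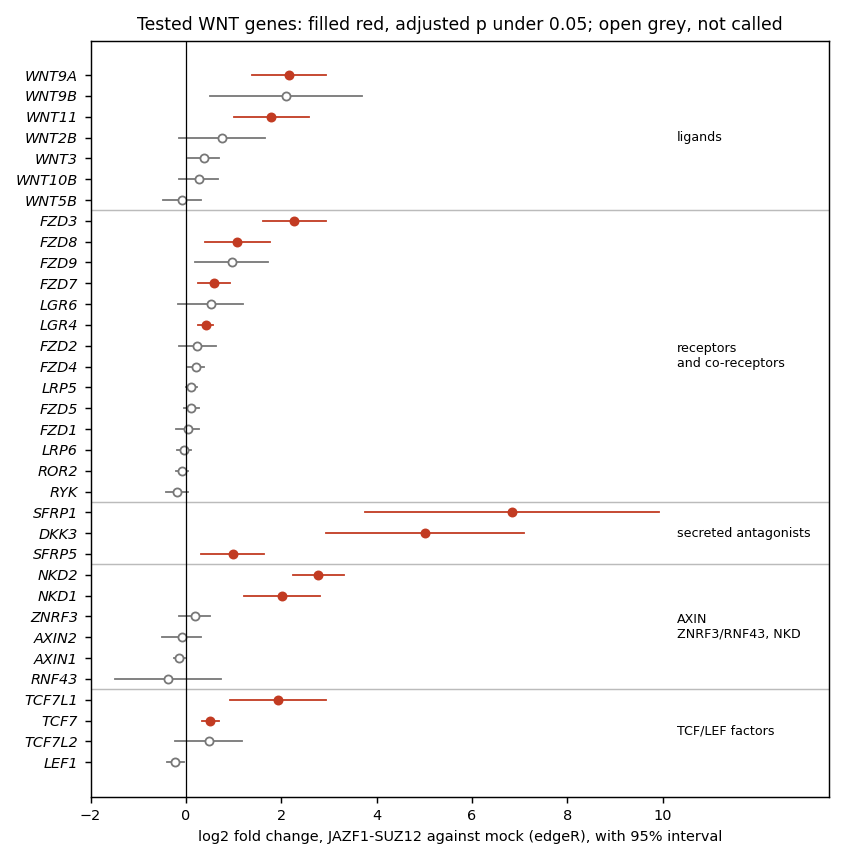
Log2 fold change, JAZF1-SUZ12 over mock libraries (x axis) for the 34 tested WNT genes (y axis), grouped by role; points are edgeR estimates, bars their 95% intervals, and filled red marks an adjusted p under 0.05. All 13 filled points lie to the right of 0; the values of SFRP1 and DKK3 rest on mock libraries with 0 or 1 counts.

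The promoter-side sequence of the members was read to show what lies ahead of the genes that rose together. RefSeq windows on GRCh38.p14 were matched for 38 of the 54 members, 7 of them called higher. The 250 bases before the transcription start are shown for the called genes NKD2, WNT9A and TCF7L1, the largest fold changes among those 7, and for LEF1, the TCF/LEF factor that was not called and lay lower. Capitals mark each CpG, the dinucleotide that is dense in the CpG islands PRC2 is known to bind. NKD2 is read from chr5:1008552-1008801 on the plus strand, WNT9A from chr1:227947933-227948182 on the minus strand, TCF7L1 from chr2:85133142-85133391 on the plus strand and LEF1 from chr4:108166302-108166551 on the minus strand. The LEF1 window lies inside the gene as annotated by GENCODE, which spans 108047545 to 108168956 on the minus strand. It therefore precedes an internal start and does not show the sequence ahead of the annotated gene. The NKD2, WNT9A and TCF7L1 windows lie just ahead of their annotated genes.
NKD2: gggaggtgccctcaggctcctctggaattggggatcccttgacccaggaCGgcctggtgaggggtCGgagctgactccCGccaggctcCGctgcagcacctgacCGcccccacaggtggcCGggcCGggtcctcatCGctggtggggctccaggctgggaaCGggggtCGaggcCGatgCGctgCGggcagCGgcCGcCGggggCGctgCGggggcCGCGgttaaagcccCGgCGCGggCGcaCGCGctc
WNT9A: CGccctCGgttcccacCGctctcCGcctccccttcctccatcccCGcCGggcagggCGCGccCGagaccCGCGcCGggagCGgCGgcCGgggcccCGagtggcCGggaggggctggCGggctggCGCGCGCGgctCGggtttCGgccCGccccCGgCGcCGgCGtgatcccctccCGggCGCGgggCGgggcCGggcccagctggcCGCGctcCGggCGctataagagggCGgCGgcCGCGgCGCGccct
TCF7L1: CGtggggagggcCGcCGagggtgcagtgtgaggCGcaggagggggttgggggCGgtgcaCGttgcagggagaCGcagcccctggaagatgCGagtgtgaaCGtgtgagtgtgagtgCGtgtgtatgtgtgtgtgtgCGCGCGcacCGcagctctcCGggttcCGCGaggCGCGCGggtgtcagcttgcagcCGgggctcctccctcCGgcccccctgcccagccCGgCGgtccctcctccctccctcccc
LEF1: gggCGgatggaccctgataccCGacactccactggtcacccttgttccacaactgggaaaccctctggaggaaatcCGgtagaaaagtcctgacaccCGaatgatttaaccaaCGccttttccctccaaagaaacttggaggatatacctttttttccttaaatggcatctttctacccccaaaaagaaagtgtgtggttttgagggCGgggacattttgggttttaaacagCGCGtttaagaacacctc

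The window holds 26 CpG in NKD2, 44 in WNT9A, 24 in TCF7L1 and 8 in LEF1. The LEF1 count comes from inside the annotated gene, so no contrast with the called genes is drawn from it. Over the 8 windows of the 7 called members the median was 23, and over the 23 windows of 16 members tested and not called it was 19. A gene with several starts entered with several windows, and some lie inside the annotated gene. Examples are WNT5B, not called, with windows of 10 and 7 CpG, and TCF7, called, with 22 and 1. No contrast between called and uncalled members is therefore drawn from these windows. The 16 windows of members that were not tested had a median of 24, and all 35116 windows in the table had a median of 11. The medians of called, uncalled and untested members thus all lay above that of all windows, while single member windows held from 0 to 44 CpG. The called windows ranged from 1 CpG, at the second start of TCF7, to the 44 of WNT9A. At least 15 CpG were in 75% of called windows and 56.5% of windows of members tested and not called. The share was 81.25% in windows of members not tested, above that of the called members, and 42.9% in all windows. The core letters CTTTGA, which are part of the TCF/LEF motif, were searched on both strands. They were in none of the 8 called windows, in 1 of the 47 member windows, that of DKK1, and in 11.2% of all windows; this says only that the letters are not in these 250 bases.

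**Figure D2:**
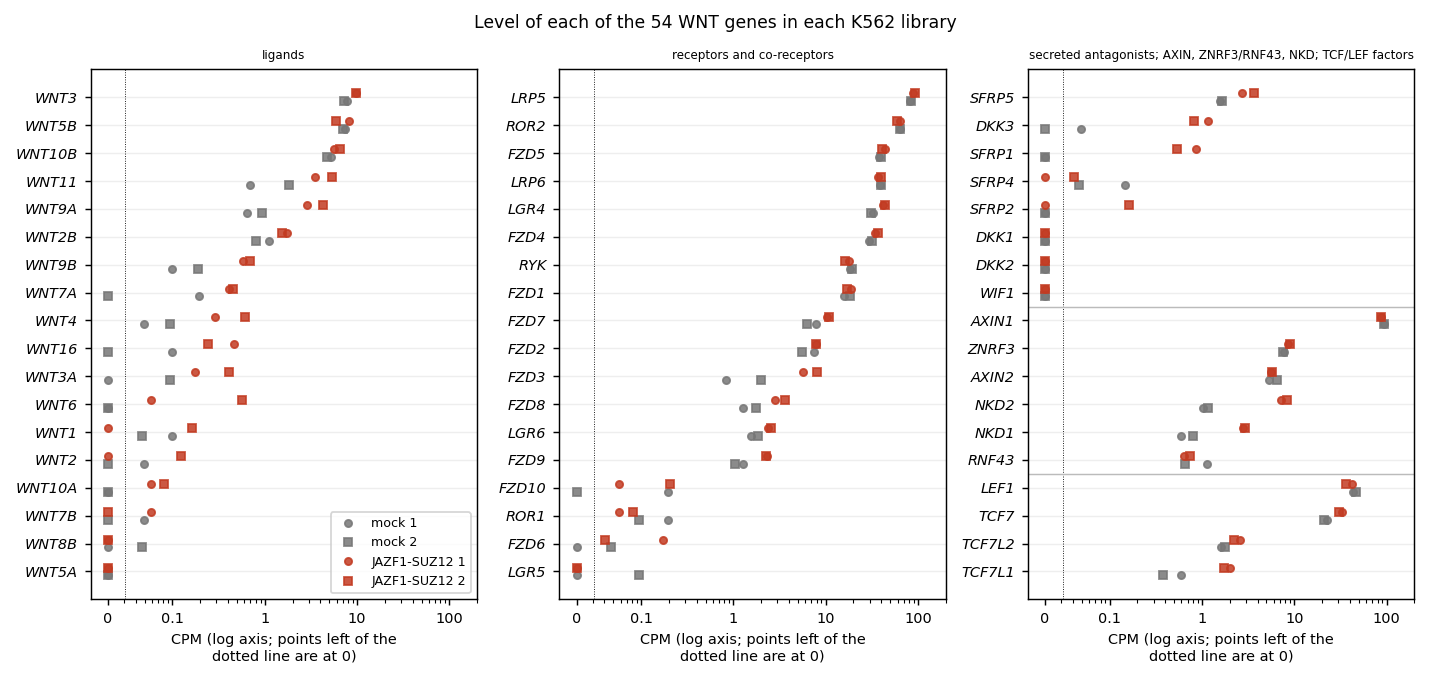
CPM in each library (x axis, log scale, with 0 set left of the dotted line) for all 54 genes (y axis), in 3 panels by role; grey is mock, red is JAZF1-SUZ12, circles are replicate 1 and squares replicate 2. Red and grey stand apart for NKD2, FZD3 and WNT9A, whereas for the abundant LRP5, ROR2 and AXIN1 they lie close together.

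Among the ligands, WNT9A and WNT11 rose, and the 3 ligands with the highest mock level per kilobase, WNT5B, WNT3 and WNT10B at 3.14, 2.24 and 2.18 CPM per kb, did not pass the test. WNT9A (ENSG00000143816; GENCODE 29 on GRCh38, chromosome 1, 227918656 to 227947898, minus strand) was at 0.636 and 0.939 CPM in mock libraries 1 and 2 and at 2.90 and 4.26 CPM in JAZF1-SUZ12 libraries 1 and 2. Both JAZF1-SUZ12 libraries thus lay above both mock libraries. Its log2 fold change was 2.16 ± 0.36 (SE; edgeR, adjusted p = 0.000445), on 13 and 20 counts in mock and 50 and 104 in JAZF1-SUZ12 libraries. WNT9A is a ligand studied in joint and blood stem cell development.

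WNT11 (ENSG00000085741; chromosome 11, 76186325 to 76210736, minus strand), a ligand best known for beta-catenin-independent signalling in cell movement, was at 0.685 and 1.83 CPM in the mock libraries and at 3.48 and 5.36 CPM in the JAZF1-SUZ12 libraries. The groups did not overlap, although the mock libraries differed from each other by more than 2-fold. Its log2 fold change was 1.79 ± 0.37 (SE; edgeR, adjusted p = 0.00226). Without mock replicate 2, the higher of the pair, it was 2.66, and without mock replicate 1 it was 1.25. It was 1.45 without JAZF1-SUZ12 replicate 2. An unstranded count could mix in an antisense gene annotated there, which has no row under its GENCODE name.

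WNT9B missed the threshold on few counts. It had 2 and 4 counts in mock and 10 and 17 in JAZF1-SUZ12 libraries, and its log2 fold change was 2.09 (95% interval 0.50 to 3.69; edgeR, adjusted p = 0.0522). WNT3, WNT10B and WNT5B carried most of the ligand counts. WNT3 was at 7.51 ± 0.454 CPM in mock against 9.84 ± 0.0156 CPM with the fusion (SD, n = 2 each), a log2 difference of 0.37 with a 95% interval of 0.047 to 0.69 (edgeR, adjusted p = 0.0896). WNT10B, at 4.96 ± 0.38 and 6.06 ± 0.63 CPM (SD, n = 2 each), had a log2 difference of 0.27 (edgeR, adjusted p = 0.337). WNT5B, a ligand of beta-catenin-independent signalling, was at 7.24 ± 0.277 CPM in mock against 7.003 ± 1.57 CPM with the fusion (SD, n = 2 each), and the groups overlapped. WNT2B had 23 and 17 counts in mock and 30 and 38 in JAZF1-SUZ12 libraries, a log2 difference of 0.75 (edgeR, adjusted p = 0.221).

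The remaining 11 ligands were not tested. WNT5A was at 0 counts in every library, which allows up to between 0.123 and 0.174 CPM by the limit of 3 counts. WNT1, WNT2, WNT7B, WNT8B and WNT10A had between 0 and 4 counts. WNT6 had 0 counts in both mock libraries and 1 and 14 in JAZF1-SUZ12 libraries. Its JAZF1-SUZ12 mean was 2.19 times the mock floor of 3 counts per library. That value rests on replicate 2, since replicate 1 was itself under 3 counts, and is no lower bound. WNT4, a ligand required in female reproductive tract development, had 1 and 2 counts in mock and 5 and 15 in JAZF1-SUZ12 libraries, a ratio of summed counts per depth of 6.68 with an exact 95% counting interval of 1.98 to 35.1. WNT3A had 0 and 2 counts against 3 and 10, a ratio of 6.51 with an interval of 1.47 to 59.4. WNT16 had 2 and 0 counts against 8 and 6, a ratio of 7.01 with an interval of 1.61 to 63.5. WNT7A had 4 and 0 counts against 7 and 11. Such intervals cover counting error only and give no comparison of conditions. All 18 ligands together summed to 23.3 ± 0.435 CPM in mock against 35.3 ± 2.12 CPM with the fusion (SD, n = 2 each). The called pair, WNT9A and WNT11, made up 8.79% of that sum in mock and 22.7% in JAZF1-SUZ12 libraries. No test was run on these sums.

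WNT genes lie in neighbouring pairs in the genome, and both partners can be set side by side. WNT9A and WNT3A are 59.2 kb apart on chromosome 1, where WNT9A rose and WNT3A was near the floor. WNT3 and WNT9B are separated by 46 bases on chromosome 17 on opposite strands in GENCODE 29, and neither was called. WNT6 and WNT10A, 6.1 kb apart on chromosome 2, had 0 counts each in mock. WNT1 and WNT10B, 6.7 kb apart on chromosome 12, were at no more than 4 counts and at between 97 and 159 counts.

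Among the receptors, FZD3, FZD7, FZD8 and LGR4 rose, that is 4 of 14 tested or 28.6% where 13.3% of all genes were called higher (edgeR). None was called lower, where 11.4% of all genes were (edgeR). By mean level that share was 0.413% under 2 CPM, 1.08% between 2 and 10 CPM and 17.2% at 10 CPM or more. With edgeR 0 receptors were lower at an unadjusted p under 0.05, and DESeq2 and limma-voom also called 0 lower. FZD3 (ENSG00000104290; chromosome 8), a Frizzled known for axon guidance and planar cell polarity, was at 0.832 and 1.97 CPM in the mock libraries and at 5.74 and 8.07 CPM in the JAZF1-SUZ12 libraries. Both JAZF1-SUZ12 libraries exceeded the higher mock library. Its log2 fold change was 2.27 ± 0.31 (SE; edgeR, adjusted p = 7.41e-05), and 3.02 without mock replicate 2. For FZD3 the authors' deposited table gave 1.39 on the log2 scale (standard error 1.61, adjusted p = 0.762), so it was not called there.

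FZD7 (chromosome 2, 202034587 to 202038445), a receptor linked to stem cell maintenance, was at 7.83 and 6.25 CPM in the mock libraries and at 10.4 and 10.97 CPM in the JAZF1-SUZ12 libraries. The groups did not overlap, and the log2 fold change was 0.59 ± 0.16 (SE; edgeR, adjusted p = 0.0132). FZD8 (chromosome 10, 35638249 to 35642278) was at 1.27 and 1.74 CPM in the mock libraries and at 2.84 and 3.60 CPM in the JAZF1-SUZ12 libraries, again without overlap. Its log2 fold change was 1.08 ± 0.32 (SE; edgeR, adjusted p = 0.0212). With DESeq2 neither was called, with adjusted p-values of 0.0588 for FZD7 and 0.0764 for FZD8. FZD7 was also lost without mock replicate 2 (edgeR, adjusted p = 0.0997), and FZD8 without JAZF1-SUZ12 replicate 2 and without mock replicate 1 (edgeR, adjusted p = 0.173 and 0.113).

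LGR4 (chromosome 11, 27365961 to 27472775, minus strand), a receptor for R-spondins that protect Frizzled from removal, was at 32.9 and 31.1 CPM in the mock libraries and at 42.1 and 44.3 CPM in the JAZF1-SUZ12 libraries. All 4 values fell into separate ranges by group, and the log2 fold change was 0.41 ± 0.07 (SE; edgeR, adjusted p = 0.000593). Its relative LGR6 was at 1.70 ± 0.188 CPM in mock against 2.48 ± 0.144 CPM with the fusion (SD, n = 2 each) and was not called (edgeR, adjusted p = 0.262). LGR5, the intestinal stem cell marker, had 0, 2, 0 and 0 counts in mock libraries 1 and 2 and JAZF1-SUZ12 libraries 1 and 2.

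Of the receptors with the highest mock levels, LGR4 was called and the others were not. Per kilobase of the longest GENCODE 29 transcript, the mock levels were 16.1 CPM per kb for LRP5, 14.7 for ROR2, 6.15 for LGR4, 5.75 for FZD5, 4.10 for FZD4, 3.92 for LRP6 and 3.58 for RYK. LRP5 and LRP6 are the co-receptors of the beta-catenin branch, ROR2 and RYK are receptors linked to WNT5A-type ligands, and FZD4 and FZD5 are Frizzleds. LRP5 was at 83.1 ± 0.583 CPM in mock against 91.3 ± 2.83 CPM with the fusion (SD, n = 2 each), a log2 difference of 0.12 with a 95% interval of -0.0026 to 0.23 (edgeR, adjusted p = 0.148). LRP6 had a log2 difference of -0.040 with an interval of -0.19 to 0.11, and ROR2 of -0.082 with an interval of -0.22 to 0.052 (edgeR). RYK lay lower without overlap, at 18.5 and 19.2 CPM in the mock libraries and 17.7 and 16.1 CPM in the JAZF1-SUZ12 libraries, and was not called (edgeR, adjusted p = 0.226).

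Of the other Frizzleds, FZD4 was at 29.2 and 31.4 CPM in mock and at 33.9 and 37.2 CPM with the fusion, and missed the threshold (edgeR, log2 difference 0.21, adjusted p = 0.0592). It passed in 4 of the alternative fits, among them the fit with the replicate number as a block (adjusted p = 0.0373). FZD9 was at 1.15 ± 0.169 CPM in mock against 2.28 ± 0.0462 CPM with the fusion (SD, n = 2 each), and was not called (edgeR, log2 difference 0.96, adjusted p = 0.0632). FZD5, FZD2 and FZD1 had log2 differences of 0.11, 0.24 and 0.037 and stayed above the threshold (edgeR, adjusted p = 0.308, 0.370 and 0.854). FZD10 and FZD6 had at most 5 counts in a library, and ROR1 had at most 4. The 10 Frizzled genes together summed to 104 ± 3.41 CPM in mock against 127 ± 0.882 CPM with the fusion (SD, n = 2 each). FZD3, FZD7 and FZD8 made up 9.60% of that sum in mock and 16.4% in JAZF1-SUZ12 libraries, and the sum was not tested.

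The 3 secreted antagonists that passed the filter were called higher, where 13.3% of all genes tested were (edgeR). They were at 0 or low levels in mock. SFRP1 and DKK3 passed the filter only through their JAZF1-SUZ12 counts, so nothing is read from that count. SFRP1 (ENSG00000104332; chromosome 8), a decoy that binds WNT ligands, had 0 counts in both mock libraries and 15 and 13 counts in JAZF1-SUZ12 libraries, and was at least 4.87-fold higher, taking 3 counts per mock library as the floor (edgeR, adjusted p = 0.00295). Without JAZF1-SUZ12 replicate 1 it had too few counts to be tested. DKK3, a member of the Dickkopf family of secreted proteins (chromosome 11, 11963106 to 12009769), had 1 and 0 counts in mock and 20 in each JAZF1-SUZ12 library. Its ratio of summed counts per depth was 40.1 with an exact 95% counting interval of 6.79 to 1621, and its adjusted p was 0.00148 (edgeR). Its fitted log2 fold change depended on the mock library, at 7.36 without mock replicate 1 and 4.14 without mock replicate 2. Both genes passed the filter through the JAZF1-SUZ12 libraries alone, among which 37.7% of all such genes were called higher.

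SFRP5 (chromosome 10, 97766751 to 97771952) was the one antagonist clearly counted in mock, at 1.57 and 1.64 CPM, and lay at 2.72 and 3.69 CPM in JAZF1-SUZ12 libraries. The groups did not overlap, and the log2 fold change was 0.98 ± 0.31 (SE; edgeR, adjusted p = 0.0300). It was the least firm of the calls. It was lost with DESeq2 (adjusted p = 0.1098) and without JAZF1-SUZ12 replicate 2, mock replicate 1 or mock replicate 2 (edgeR, adjusted p = 0.278, 0.0882 and 0.0554). SFRP2 and SFRP4 had at most 4 counts in a library. DKK1, DKK2 and WIF1 were at 0 counts in all 4 libraries.

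The inhibitors NKD1 and NKD2 rose, and the other restraining genes were not called. NKD2 (ENSG00000145506; chromosome 5, 1008829 to 1038943, plus strand), whose upstream sequence is printed above, was at 1.03 and 1.17 CPM in the mock libraries and at 7.13 and 8.27 CPM in the JAZF1-SUZ12 libraries. The 2 groups were far apart relative to their spread, and the log2 fold change was 2.78 ± 0.25 (SE; edgeR, adjusted p = 7.25e-07), the smallest p among the 54 genes. It ranged from 2.68 to 2.87 over the 11 alternative fits. The authors' deposited table gave 3.16 for NKD2, with an adjusted p of 7.52e-11.

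NKD1 (ENSG00000140807; chromosome 16, 50548330 to 50649249, plus strand), which like NKD2 binds Dishevelled and is widely used as a target gene of beta-catenin, was at 0.587 and 0.798 CPM in the mock libraries and at 2.78 and 2.95 CPM in the JAZF1-SUZ12 libraries. The groups did not overlap. Its log2 fold change was 2.02 ± 0.38 (SE; edgeR, adjusted p = 0.00107). Genes annotated on both strands overlap NKD1 in GENCODE 29, and none of them has a row under its GENCODE name.

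AXIN2, the most used readout of beta-catenin activity, did not show that difference. It was at 5.33 and 6.57 CPM in the mock libraries and at 5.56 and 5.77 CPM in the JAZF1-SUZ12 libraries, so that the JAZF1-SUZ12 values lay inside the mock range. Its log2 difference was -0.092 with a 95% interval of -0.50 to 0.31 (edgeR, adjusted p = 0.772), and it turned to 0.058 without mock replicate 2. AXIN1, the scaffold of the destruction complex, lay lower without overlap, at 93.8 and 94.3 CPM in the mock libraries and 86.8 and 86.3 CPM in the JAZF1-SUZ12 libraries (edgeR, log2 difference -0.14, adjusted p = 0.0719). ZNRF3 was at 7.62 ± 0.22 CPM in mock against 8.77 ± 0.278 CPM with the fusion (SD, n = 2 each; edgeR, adjusted p = 0.431). RNF43 had 23 and 14 counts in mock and 11 and 18 in JAZF1-SUZ12 libraries and was not called (edgeR, adjusted p = 0.647).

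Of the TCF/LEF factors, TCF7 and TCF7L1 rose, and LEF1, the highest per kilobase in mock at 13.01 CPM per kb against 4.10 for TCF7, lay lower without passing. TCF7 (chromosome 5, 134114711 to 134151865, plus strand), also called TCF1, was at 22.8 and 21.0 CPM in the mock libraries and at 33.1 and 30.6 CPM in the JAZF1-SUZ12 libraries. The groups were apart, with a log2 fold change of 0.51 ± 0.09 (SE; edgeR, adjusted p = 0.000505). SKP1 overlaps TCF7 on the opposite strand, and its counts were 4759 and 4745 in mock and 3920 and 5492 in JAZF1-SUZ12 libraries. Since the use of strand in counting is not stated, reads of this pair may not be fully separated. TCF7L1 (chromosome 2, 85133410 to 85310388, plus strand), also called TCF3 and known mainly as a repressor, was at 0.587 and 0.376 CPM in the mock libraries and at 2.03 and 1.72 CPM in the JAZF1-SUZ12 libraries. These did not overlap, and the log2 fold change was 1.92 ± 0.48 (SE; edgeR, adjusted p = 0.00762). TCF7L1 passed the filter through the JAZF1-SUZ12 libraries alone, as did genes of which 37.7% were called higher and none lower.

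LEF1 was at 43.4 and 47.0 CPM in the mock libraries and at 42.7 and 36.3 CPM in the JAZF1-SUZ12 libraries, so replicate 2 of JAZF1-SUZ12 lay furthest from mock. Its log2 difference was -0.23 ± 0.08 (SE; edgeR, adjusted p = 0.0600). It passed as lower with limma-voom, with no filter, with the replicate number as a block and without JAZF1-SUZ12 replicate 1 or mock replicate 1, with adjusted p-values from 0.00100 to 0.0439 in those fits. TCF7L2 was at 1.70 ± 0.12 CPM in mock against 2.41 ± 0.28 CPM with the fusion (SD, n = 2 each) and was not called (edgeR, log2 difference 0.47, adjusted p = 0.325). Of the summed CPM of the 4 factors, LEF1 made up 65.2% in mock and 52.2% in JAZF1-SUZ12 libraries, and TCF7 with TCF7L1 made up 32.3% and 44.6%.

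The members that rose were mostly among those of low and middle level. Split by mean CPM over the 4 libraries, 4 of 8 tested members under 2 CPM were called higher, where 14.7% of all genes tested at that level were. These 4 were NKD1, SFRP1, DKK3 and TCF7L1, and the last 3 passed the filter through the JAZF1-SUZ12 libraries alone, as did genes of which 37.7% were called higher and none lower, so nothing is read from that count. Between 2 and 10 CPM, 7 of 15 were called higher, against 21.8% of all genes at that level. At 10 CPM or more, 2 of 11, LGR4 and TCF7, were called higher, against 10.6%. No member was called lower in these 3 ranges, where 0.413%, 1.08% and 17.2% of all genes were, from low to high level. The plot of level and change shows the members among all genes tested.

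**Figure D3:**
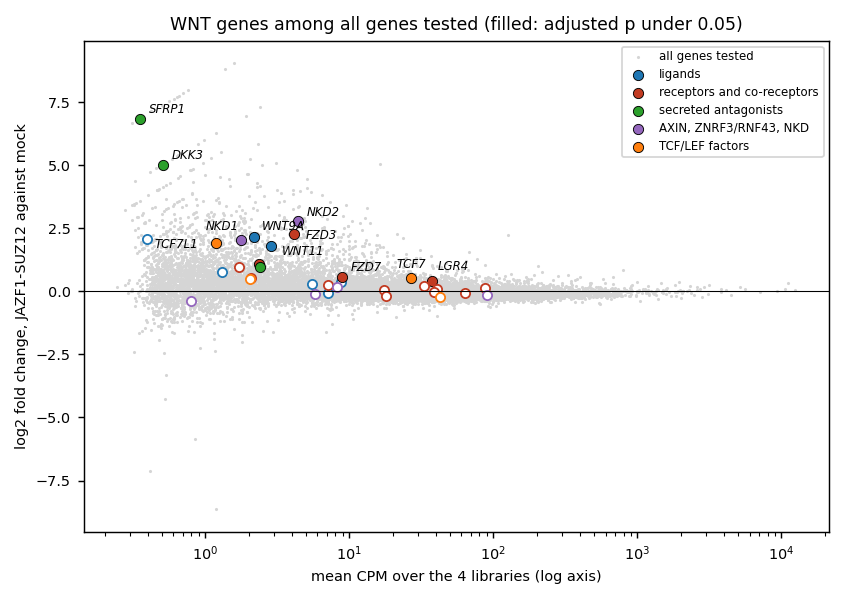
Log2 fold change, JAZF1-SUZ12 over mock libraries (y axis) against mean CPM over the 4 libraries (x axis, log scale); grey points are all 14750 genes tested, coloured points the 34 tested WNT genes by role, filled where the adjusted p is under 0.05. The filled points lie above 0, and 11 of the 13 lie under 10 CPM.

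The rest of the pathway was read from a further list of 68 genes, of which 52 were tested. In it 8 were called higher and 2 lower (edgeR), or 15.4% and 3.85% of those tested, so that the share higher was near the 13.3% of all genes. Its median log2 fold change was 0.022. Of 17 genes of the Dishevelled and destruction complex group, all tested, none was called by edgeR, where 24.7% of all genes were called in either direction. Of these 17, 3 had an unadjusted p under 0.05, and the log2 differences of all 17 lay between -0.24 and 0.16. CTNNB1, which encodes beta-catenin, was at 251 ± 6.78 CPM in mock against 261 ± 8.13 CPM with the fusion (SD, n = 2 each), a log2 difference of 0.032 with a 95% interval of -0.064 to 0.13 (edgeR, adjusted p = 0.659).

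The 6 genes called higher with the smallest p-values were CD44, LRP4, PTK7, TLE2, VANGL2 and NOTUM. LRP4, a relative of LRP5 that binds sclerostin-type antagonists, was at 34 and 25 counts in mock and 211 and 267 in JAZF1-SUZ12 libraries. The groups were far apart, by 3.003 on the log2 scale (edgeR, adjusted p = 8.75e-08). CD44, an adhesion receptor often listed as a target gene of beta-catenin, was at 17.9 ± 0.144 CPM in mock against 39.8 ± 0.126 CPM with the fusion (SD, n = 2 each), which is 1.13 on the log2 scale (edgeR, adjusted p = 7.74e-08). PTK7 and VANGL2 act in planar cell polarity and rose by 0.87 and 0.45 on the log2 scale. NOTUM, a secreted enzyme that inactivates WNT ligands, rose by 0.58, and TLE2, a co-repressor of TCF/LEF factors, by 0.60. PYGO1 and CELSR2 were the other 2 called higher, named after their values were seen, CELSR2 with a log2 fold change of 0.18. PYGO1 had 2 and 3 counts in mock, at or under the floor, and 19 and 35 in JAZF1-SUZ12 libraries.

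The 2 called lower were SOSTDC1 and PYGO2. SOSTDC1, a secreted protein that binds LRP co-receptors and BMP ligands, had 671 and 575 counts in mock and 295 and 470 in JAZF1-SUZ12 libraries. Its mean was 29.9 ± 4.12 CPM in mock against 18.2 ± 1.52 CPM with the fusion (SD, n = 2 each), which is -0.73 on the log2 scale (edgeR, adjusted p = 9.55e-05). PYGO2, a nuclear cofactor of beta-catenin, was lower by a log2 difference of -0.20 (edgeR, adjusted p = 0.0285) and was not called with DESeq2 (adjusted p = 0.115). NOTUM, placed here with ligand modification, was also listed as a textbook target, and like CD44 it was called higher. The other textbook targets in the list, CCND1, SP5, BAMBI, ASCL2, SP8 and ID2, had log2 differences between -0.15 and 0.17. None of these was called (edgeR), and TNFRSF19 was not tested. The plot by role sets these groups side by side.

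**Figure D4:**
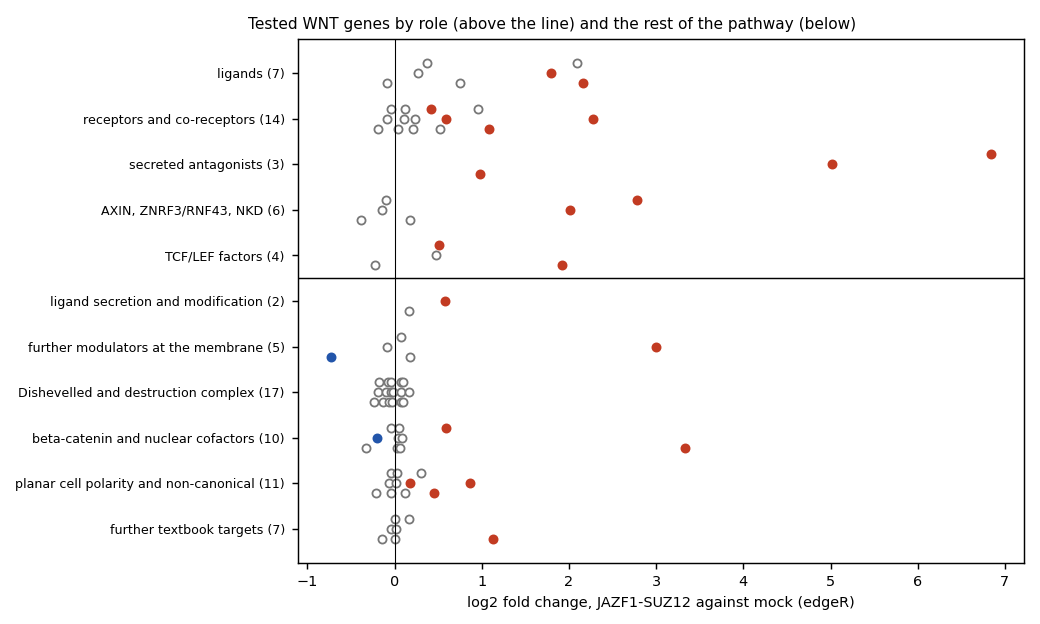
Log2 fold change, JAZF1-SUZ12 over mock libraries (x axis) for each tested gene by role (y axis, number tested in brackets), with the members above the line and the further pathway genes below it; filled red is called higher, filled blue called lower, open grey not called. The destruction complex group shows no filled point, and of the 3 filled antagonists SFRP1 and DKK3 were testable only through their JAZF1-SUZ12 counts.

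The authors' deposited table lists 49 of the 54 members, 36 of them with an adjusted p-value. It called 6 higher, NKD2, NKD1, WNT9A, SFRP1, WNT11 and LGR4, and none lower, where it called 4.93% of its genes higher and 3.57% lower. All 6 were among the 13 called here. Of the 34 members tested here, 32 had the same direction in the authors' deposited table, and the exceptions were LRP6 and AXIN2, called in neither. For DKK3, TCF7 and TCF7L1 the authors' deposited table gave adjusted p-values of 0.0869, 0.211 and 0.326, with log2 fold changes of 4.77, 0.36 and 1.504.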

How the data were processed

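Poly(A)-selected directional RNA-seq libraries of K562 cells, 2 per group, were compared. The authors deposited estimated counts per gene, not normalized, and between 29.9% and 33.6% of values per library differ from a whole number by more than 1e-06, so they were rounded before testing. The submitters' processing notes name fastp 0.20.1, FastQC 0.11.7, MultiQC 1.5, kallisto 0.46.2, DESeq2 1.30.1 and hg38, without roles. The annotation and use of strand are not given in the sources used here. The authors also deposited a table with a mean signal of depth-normalized counts, a log2 fold change with its standard error, a test statistic (score), and a p-value, raw and adjusted. The headers name these columns.

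Genes passing edgeR's filterByExpr (14750) were scaled with TMM and tested by quasi-likelihood in edgeR 4.0.16 (R 4.3.3), two-sided, group as the only term, with Benjamini-Hochberg adjustment over all genes tested and a threshold of 0.05. Standard errors come from the log2 fold change and its F statistic. CPM is the rounded count over the library total times 1000000. At most 3 counts is the floor, and intervals on counts are exact and cover counting error only. The 2 libraries of a group limit every SD. In simulated counts over 14471 genes, edgeR recovered 96 of 100 genes changed 2-fold and 100 of 100 changed 4-fold, with 20 false calls. The changed genes all had a mean of at least 50 counts. The rates therefore do not cover genes under that mean, such as WNT9A, SFRP1, DKK3, TCF7L1 and NKD1. Alternatives were DESeq2 1.42.0, limma-voom (limma 3.58.1), other scalings and filters, a replicate block and leaving out each library. Positions and lengths are from GENCODE 29 (GRCh38), which matched 35410 gene IDs.

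The members and lists were chosen with earlier results of these data known. Full values are given for members called, with a mean of at least 50 counts, or with groups apart and at least 10 counts in 1 library, and for up to 6 further pathway genes per direction by p. Same-numbered libraries showed no shared deviation (correlation 0.025 over 11826 genes). The compared differences include counting noise, so this value cannot exclude a pairing.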

Additional observations from a re-analysis of the deposited data

How the results depend on the processing

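The count of WNT genes called higher, 13, was 9 with a mean of at least 50 counts, where 5 of the 13 (WNT9A, SFRP1, DKK3, TCF7L1 and NKD1) did not enter the test and FZD4 was added, 10 with DESeq2 and between 13 and 15 in the other fits with all libraries. It ranged from 11 to 13 when 1 library was left out, which leaves a lone sample assumed to vary like the other group. The count called lower, 0, was 1 (LEF1) with limma-voom, with no filter, with the replicate block, and between 0 and 1 over the fits without 1 library. With the replicate block 15 WNT genes were called, 14 higher and 1 lower, FZD4 and LEF1 being added and none of the 13 lost, and 4061 genes in all. Whether the numbers pair the libraries is not known, and that fit is a check only. Over all genes, DESeq2 called 2407 instead of 3643 and 1051 lower instead of 1688, and the number lower ranged from 1070, without JAZF1-SUZ12 replicate 2, to 1941, without JAZF1-SUZ12 replicate 1. The cause was not tested. Of the further pathway genes, 1 instead of 2 was lower with total counts only and with DESeq2. Over the fits without 1 library the log2 difference turned for WNT5B (-0.33 to 0.16, above 0 without JAZF1-SUZ12 replicate 2), for FZD1 (-0.088 to 0.15, and -0.050 without JAZF1-SUZ12 replicate 1) and for AXIN2 (-0.24 to 0.058, above 0 without mock replicate 2), none of them called in any fit.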
